A study of Mus musculus with 12 samples.

Results

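The PAQR family (progestin and adipoQ receptors) was followed through 9 genes of the deposited expression table: the adiponectin receptor genes Adipor1 and Adipor2, the membrane progestin receptor genes Paqr5, Paqr6, Paqr7, Paqr8 and Paqr9, and Paqr3 and Paqr4. The 9 members were taken by gene symbol out of 47643 genes. The family was chosen by the measured level of Paqr7, which was lower in knockout than in floxed libraries. Paqr7's genotype differences are therefore given as a description with no test. The same holds for its diet difference within each genotype and for its genotype by diet interaction, which share libraries with the values that chose it. The diet difference averaged over genotypes is balanced over genotype, and there Paqr7 was tested with the others.

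Bulk RNA-seq was done on intestine from male C57BL/6 mice aged 7 to 8 weeks, in 4 groups of 3 libraries. The control groups (Pparafl/fl), called floxed, have a Ppara gene that a recombinase can remove. The knockout groups (PparaΔIE), called IEKO below, are named for a Ppara deletion made in intestinal epithelial cells. Floxed chow and IEKO chow mice were fed chow, and floxed HFD and IEKO HFD mice received a diet labelled 60% HFD (high-fat), in both cases for 10 days. Neither the recombinase line, the deleted exons nor the segment of intestine is given in the sources used here, and cells outside the epithelium would keep the gene under such a deletion.

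PAQR proteins are multi-pass membrane proteins. The adiponectin receptors have the amino terminus inside the cell, the reverse of G protein-coupled receptors. Adiponectin, a hormone of fat cells, acts through ADIPOR1 and ADIPOR2, which raise AMPK and PPARA activity and are tied to ceramide breakdown. The progestin receptors of the family bind progesterone and related steroids at membranes, while PAQR3 sits in the Golgi, where it holds RAF kinases and the SCAP-SREBP complex. PAQR3 and PAQR9 have also been linked to the stability of the PPARA protein in liver. Ppara encodes a lipid-sensing nuclear receptor that turns on fat-burning genes.

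RefSeq windows of 300 bases around gene starts (250 before and 50 after, build GRCm38.p6) were matched for 8 of the 9 members, all but Paqr9, as 11 windows. The stretches upstream of Paqr7, Adipor2 and Paqr8 are shown because these members had the 3 largest diet differences. Each runs 5′ to 3′ on the gene's strand and holds only bases upstream of the RefSeq start and of the nearest annotated exon. The Adipor2 start in RefSeq lies inside the span of the gene in the GENCODE annotation. Capitals mark CG dinucleotides.
Paqr7 (chr4:134496511-134496696, plus strand): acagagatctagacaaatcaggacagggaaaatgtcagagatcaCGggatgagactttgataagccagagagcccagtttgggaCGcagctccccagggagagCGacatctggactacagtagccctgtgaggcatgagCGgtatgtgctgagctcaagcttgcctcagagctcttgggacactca
Adipor2 (chr6:119388735-119388984, minus strand): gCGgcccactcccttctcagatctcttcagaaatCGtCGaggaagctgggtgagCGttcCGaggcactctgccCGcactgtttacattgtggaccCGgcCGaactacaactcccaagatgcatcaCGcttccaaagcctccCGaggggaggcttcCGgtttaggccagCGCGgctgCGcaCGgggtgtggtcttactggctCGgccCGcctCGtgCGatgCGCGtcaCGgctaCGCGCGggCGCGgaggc
Paqr8 (chr1:20890298-20890547, plus strand): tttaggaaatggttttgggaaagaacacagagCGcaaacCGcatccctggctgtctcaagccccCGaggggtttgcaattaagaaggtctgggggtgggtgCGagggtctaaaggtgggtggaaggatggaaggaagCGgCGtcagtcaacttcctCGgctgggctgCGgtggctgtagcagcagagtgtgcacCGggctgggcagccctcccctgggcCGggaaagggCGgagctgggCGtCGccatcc

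The Paqr7 stretch of 186 bases held 4 CG dinucleotides, against 27 in 250 bases for Adipor2 and 13 in 250 bases for Paqr8. In its full window the first Paqr7 start held 7 CG dinucleotides, the median of 32851 windows, while a second Paqr7 start (chr4:134496791-134497090) held 21 and the Adipor2 window 41. A direct repeat of AGGTCA with 1 base between the copies, the form of element that PPARA binds with RXR, was searched on both strands and was in 0 of the 11 family windows and in 0.0396% of all windows. The same repeat of AGGNCA, which includes it, was in 0 family windows and in 0.381% of all. The single copy AGGTCA, which the first repeat contains, was found for 2 of 8 members, Paqr6 and the second start of Paqr8, against 16.3% of all windows. The GC box GGGCGG was found for 7 of 8 members, in 9 of 11 windows, against 35.7% of all windows. Adipor2 was the member without it, and in Paqr7 it was in the second window only. A match describes the letters of these windows and does not show a bound site.

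Per unit of transcript length, 3 genes made up nearly all of the family's RNA in these samples. CPM, the count scaled to a common library size, was divided by the exon length of each gene in kilobases to compare genes. Over the 12 libraries Adipor2 averaged 38.3 CPM per kb, Paqr4 34.2 and Adipor1 30.0. Next came Paqr5 at 1.85, Paqr8 at 1.83 and Paqr7 at 1.43 CPM per kb, and Paqr3 stood at 0.0579. Paqr6 and Paqr9 were near the limit of detection, with 23 and 42 counts in all 12 libraries together. Paqr6 had 0 counts in 4 libraries and Paqr9 in 2, and a count of 0 allows up to 3 counts, or 0.0568 to 0.0917 CPM. Both were removed by the filter on low counts, so that 7 of the 9 members were tested.

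**Figure D1:**
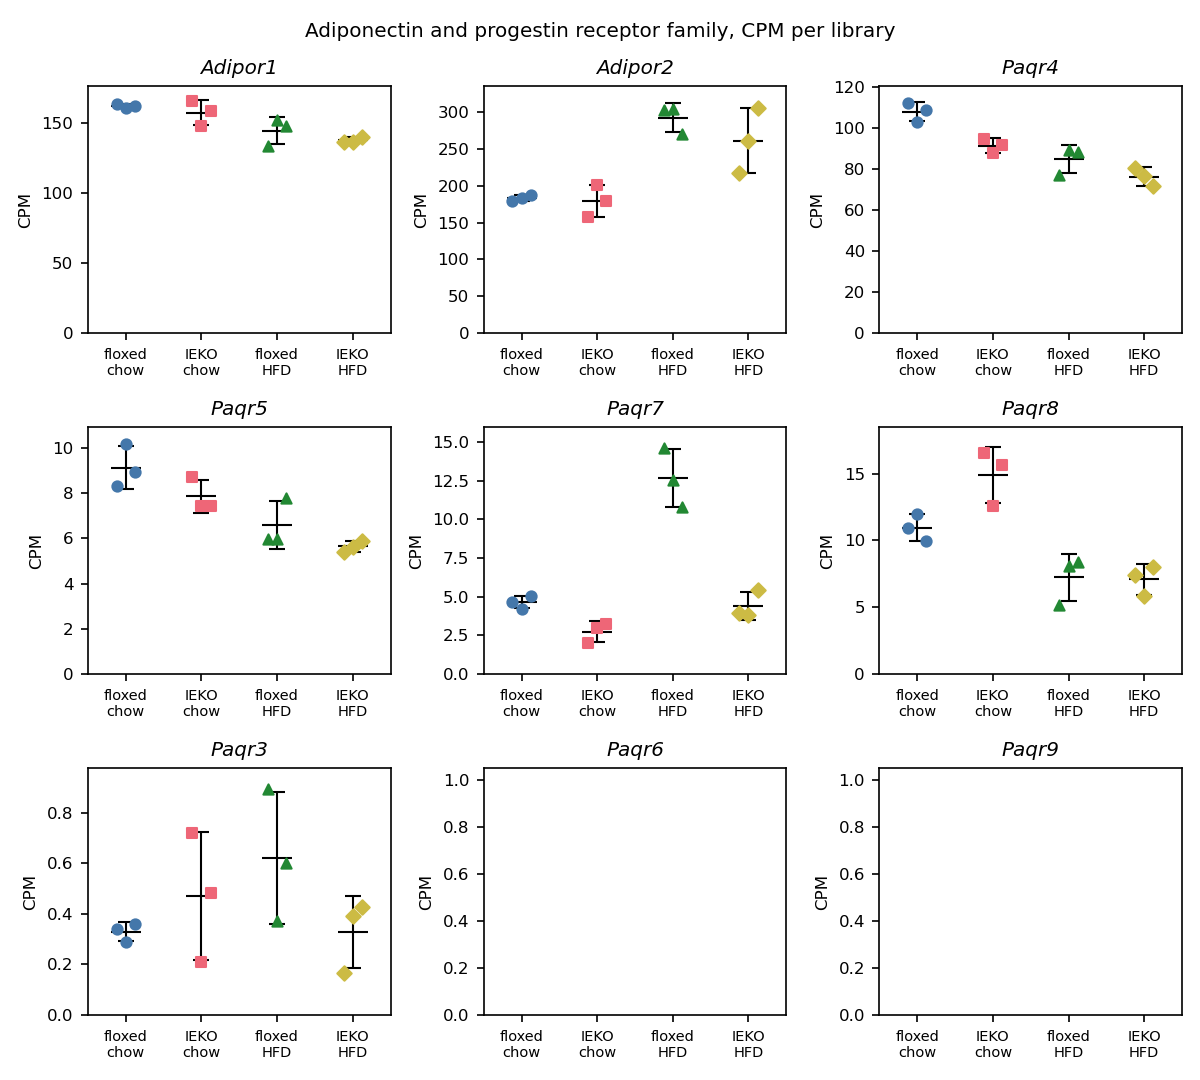
CPM of the family members other than Paqr6 and Paqr9 in each of 12 libraries (points), by group. Bars give the group mean and SD (n = 3), and the linear axes start from 0 and differ between panels. No mean or SD is drawn for Paqr6 and Paqr9, which lie near the detection limit. Adipor2 and Paqr7 are higher on HFD than on chow within each genotype, and Paqr8 is lower.

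Library totals ran from 33620991 to 53959367 expected counts, and the labels give no batch. Nothing in the labels says that each library is a different mouse, and the p-values then measure library spread, which could be technical. Markers of the epithelium were strong in all libraries, with Epcam, Vil1, Cdh1, Cdx2, Krt8 and Krt20 summing to 10200 to 14700 CPM. The colon markers Aqp8 and Hoxb13 were at 0 in 9 and 11 libraries, and those of pancreatic acinar cells summed to at most 0.197 CPM. Ppara was lower in every IEKO library than in every floxed library of the same diet, with a log2 fold change of -0.68 on chow (SE 0.21, adjusted p = 0.25) and -1.46 on HFD (SE 0.21, adjusted p = 0.031). Between the floxed chow libraries the spread was small (biological coefficient of variation 0.0583, against 0.14 to 0.151 in the other groups). Of 146 genes at least 2-fold apart between IEKO chow 1 and 2, 99.3% lay between them in IEKO chow 3, and in floxed chow 1 this was 88.2% of 17 genes. Of the 7 tested members, 5 lay between in IEKO chow 3, and results are also given without both of these libraries.

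Some markers of other positions and cells differed between the diets beside the members. For averaged diet 26.2% of all 17602 genes tested were called (12.9% higher, 13.3% lower), and the marker counts here are a description. Of 5 T cell, 5 B and plasma cell and 5 myeloid markers 0 were called. Of 6 enteric neuron and glia markers 2 were tested and 0 called. For Lct, Gata4, Onecut2, Pdx1 and Cybrd1, genes of the upper small intestine, log2(CPM + 0.5) was centred per gene and averaged into a proximal score. In floxed chow the score ran from -0.811 to -0.723, below the floxed HFD range of 0.019 to 0.893. In IEKO chow it was -1.113, 0.436 and 0.165 in libraries 1, 2 and 3, and in IEKO HFD it ran from -0.136 to 0.789. Lct, the lactase gene, was the 1 of 4 tested genes called for averaged diet, at 2.01 to 2.75 CPM in floxed chow and 76.2 to 256 CPM in floxed HFD, while Pdx1 was at 0 in 4 libraries. Gata4 averaged 2.62 and 6.2 CPM on chow and HFD in floxed mice, and 5.22 and 6.51 CPM in IEKO mice. Cybrd1 averaged 1.68 and 2.25 CPM in floxed mice, and 1.24 and 1.79 CPM in IEKO mice. Onecut2 went the other way, at 0.462 and 0.287 CPM in floxed mice and 0.489 and 0.273 CPM in IEKO mice. Lct had the widest range of these genes, so the score followed it most. Of 5 distal ileum markers, summing to 5130 to 6270 CPM on chow and 5090 to 6970 CPM on HFD, 1 was higher on average (Fgf15, 1.81, adjusted p = 0.016) and 1 lower (Slc51b, -0.32, adjusted p = 0.025). Fgf15 averaged 14.9 CPM in floxed chow and 103 CPM in floxed HFD, and within IEKO chow it was 15.1, 109 and 69.3 CPM in libraries 1, 2 and 3. Of 4 colon markers 2 were tested and 1 was lower, Car1 (-4.04, adjusted p = 0.00017), at most 1.23 CPM in any library. Of 6 epithelial markers 3 were lower on HFD on average (Krt8, Cdx2 and Krt20), their sum being 11700 to 14700 CPM on chow and 10200 to 12800 CPM on HFD. Of 5 endothelial markers 4 were higher (Tek, Pecam1, Cdh5 and Kdr), with sums of 23.9 to 32.2 CPM on chow and 26.8 to 36.8 CPM on HFD. Of 10 smooth muscle markers 1 was higher (Synm), with sums of 53.8 to 74.0 CPM on chow and 38.7 to 130 CPM on HFD. In floxed mice, diet and the proximal score cannot be told apart. In bulk tissue, fewer cells of a type and less RNA per cell cannot be told apart either.

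The adiponectin receptor genes parted on the high-fat diet, with Adipor2 higher and Adipor1 slightly lower. Adipor2 (chromosome 6, 119353150 to 119417704) measured 180, 184 and 187 CPM on chow and 302, 304 and 270 CPM on HFD in floxed mice. In IEKO mice it measured 158, 201 and 179 CPM on chow and 217, 260 and 305 CPM on HFD. Every HFD library was above every chow library, while the genotypes overlapped on each diet. The log2 fold change of HFD over chow was 0.67 in floxed (SE 0.11, adjusted p = 0.0026), 0.54 in IEKO (SE 0.11, adjusted p = 0.012) and 0.61 averaged over genotypes (SE 0.08, adjusted p = 0.00017), a 1.52-fold rise. With the proximal score as a covariate the averaged value was 0.39 (adjusted p = 0.032) and the value in floxed was 0.36 (adjusted p = 0.235). The call in IEKO was lost without IEKO chow 1 or IEKO chow 3 (adjusted p up to 0.0612), and without floxed chow 1 and IEKO chow 3 together (0.106).

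Adipor1 (chromosome 1, 134415378 to 134433351) was the steadiest member. The floxed libraries held 164, 161 and 162 CPM on chow and 134, 152 and 148 CPM on HFD. The IEKO libraries held 166, 148 and 158 CPM on chow and 137, 136 and 140 CPM on HFD. Within each genotype the HFD libraries were below the chow libraries, by a small margin. Averaged over genotypes it fell by 0.18 on the log2 scale (SE 0.05, adjusted p = 0.017), a 1.13-fold difference, and by edgeR's test it did not pass in floxed (-0.16, adjusted p = 0.14) or IEKO alone (-0.19, adjusted p = 0.10). In IEKO, DESeq2 called it (-0.20, adjusted p = 0.0489), and so did edgeR without IEKO chow 2 (adjusted p = 0.0396). The averaged call was lost with the proximal score (-0.11, adjusted p = 0.426) and without floxed chow 1 and IEKO chow 3 together (-0.19, adjusted p = 0.0843).

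The balance of the adiponectin receptors moved with the diet. Per kb, the ratio of Adipor2 to Adipor1 was 0.951 ± 0.0248 in floxed chow and 0.962 ± 0.171 in IEKO chow (SD, n = 3). On HFD it was 1.70 ± 0.184 in floxed and 1.59 ± 0.247 in IEKO. The chow libraries ran from 0.797 to 1.14 and the HFD libraries from 1.33 to 1.90, without overlap. This ratio was formed after the values were seen and has no test.

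**Figure D2:**
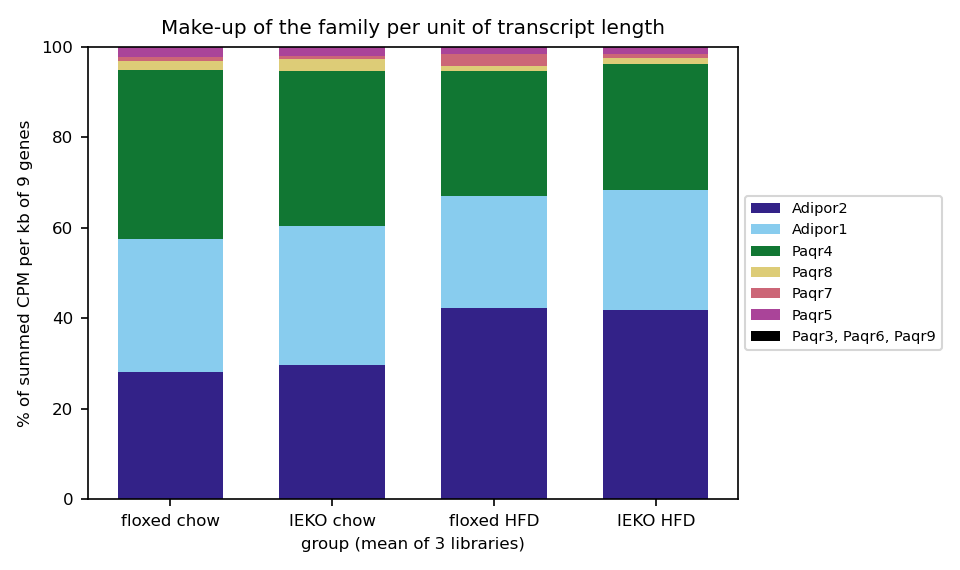
Share of each gene in the summed CPM per kb of the 9 members (vertical axis, %), as the mean of 3 libraries in each group (bars). Adipor2 took 28.1% in floxed chow and 42.2% in floxed HFD, and Paqr4 took 37.4% and 27.7%.

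Among the membrane progestin receptors, Paqr7 (chromosome 4, 134496697 to 134510235), which encodes mPR alpha, had the widest range. Floxed mice had 4.68, 4.23 and 5.02 CPM on chow and 14.6, 12.6 and 10.8 CPM on HFD. IEKO mice had 2.0, 2.98 and 3.26 CPM on chow and 3.92, 3.83 and 5.44 CPM on HFD. Floxed HFD stood above all other libraries and IEKO chow below all others. The groups between them, floxed chow and IEKO HFD, overlapped, so that IEKO mice on the high-fat diet had about the Paqr7 level of floxed mice on chow (4.40 ± 0.907 and 4.64 ± 0.395 CPM, SD, n = 3). These values rest on 75 to 587 counts per library.

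As a description, Paqr7's IEKO minus floxed log2 fold change was -0.76 on chow, -1.53 on HFD and -1.15 averaged over diets. Leaving out each library in turn gave -0.90 to -0.57 on chow and -1.72 to -1.41 on HFD. HFD minus chow was 1.44 in floxed and 0.68 in IEKO, a gap of -0.76. With the proximal score as a covariate this gap was -0.46, the floxed diet value 0.96 and the chow genotype value -1.0. The diet difference averaged over genotypes, which was tested, was a 2.09-fold rise (log2 fold change 1.06, SE 0.13, adjusted p = 0.0001). It remained called with the proximal score (0.73, adjusted p = 0.0221) and in each of the 12 fits without 1 library (0.95 to 1.12, adjusted p at most 0.00066).

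Paqr8 (chromosome 1, 20890606 to 20939650), which encodes mPR beta, went the other way on HFD. Its floxed values were 10.9, 11.99 and 9.94 CPM on chow and 5.17, 8.11 and 8.40 CPM on HFD. Its IEKO values were 16.6, 12.6 and 15.6 CPM on chow and 7.39, 5.82 and 8.01 CPM on HFD. IEKO chow was the highest group, floxed chow came next, and the HFD groups overlapped each other below both. The log2 fold change of HFD over chow was -0.84 averaged over genotypes (SE 0.12, adjusted p = 0.00041), a 1.79-fold fall. It was -1.08 in IEKO (SE 0.18, adjusted p = 0.0035), a call kept in every fit without 1 library and with the proximal score (-0.92, adjusted p = 0.00906). In floxed it was -0.60 (SE 0.17, adjusted p = 0.037). That call was lost without floxed chow 1, 2 or 3, floxed HFD 1 or 2 or IEKO chow 3 (adjusted p up to 0.118), and when the proximal score was included (-0.26, adjusted p = 0.707). The averaged call missed the threshold with the proximal score (-0.59, adjusted p = 0.0539).

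Set against each other per kb, the ratio of Paqr7 to Paqr8 in floxed mice was 0.552 ± 0.098 on chow and 2.43 ± 1.06 on HFD, and in IEKO mice 0.243 ± 0.078 on chow and 0.802 ± 0.104 on HFD (SD, n = 3). Only in floxed HFD was Paqr7 the more abundant of these receptor transcripts, in all 3 libraries (1.66 to 3.64). Like the other ratio, this one was formed after the values were seen.

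Paqr5 (chromosome 9, 61953481 to 62026856), which encodes mPR gamma, was lower on HFD. In floxed mice it went from 8.30, 10.2 and 8.92 CPM on chow to 5.97, 5.98 and 7.80 CPM on HFD. In IEKO mice it went from 8.72, 7.45 and 7.43 CPM on chow to 5.42, 5.63 and 5.90 CPM on HFD. Within each genotype all HFD libraries were below all chow libraries. The averaged log2 fold change was -0.47 (SE 0.09, adjusted p = 0.0021). In floxed it was -0.47 (adjusted p = 0.026), a call lost without floxed chow 2 or 3 or floxed HFD 1 or 2 (adjusted p up to 0.107). In IEKO it was -0.48 (adjusted p = 0.037), a call lost in 6 of 12 such fits, those without floxed chow 3, IEKO chow 1 or 3 or any IEKO HFD library (adjusted p up to 0.114). With the proximal score the averaged value was -0.32 (adjusted p = 0.176).

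The remaining progestin receptor genes, Paqr6 (chromosome 3, 88364584 to 88368541) and Paqr9 (chromosome 9, 95559657 to 95568023), encode mPR delta and mPR epsilon. Paqr6 reached at most 7 counts in a library and Paqr9 at most 10. Neighbouring groups in the order of means overlapped for both, and no difference was tested at this depth.

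Paqr4 (chromosome 17, 23736186 to 23740867), a member whose ligand is not settled, was the second most abundant per kb. Chow libraries had 112, 103 and 109 CPM if floxed and 94.9, 87.9 and 92.1 CPM if IEKO. HFD libraries had 77.1, 89.6 and 88.5 CPM if floxed and 80.9, 76.7 and 71.9 CPM if IEKO. Floxed chow was above all other libraries, and neighbouring groups among the other three overlapped. Averaged over genotypes, Paqr4 was lower on HFD than on chow (log2 fold change -0.30, SE 0.05, adjusted p = 0.0012), by edgeR's test. In floxed the value was -0.35 (adjusted p = 0.0098), not called without floxed chow 1 (0.0547). In IEKO it was -0.26 (adjusted p = 0.049), a call lost in 10 of 12 fits without 1 library, all but those without IEKO chow 2 or floxed HFD 1 (adjusted p up to 0.125). With the proximal score the averaged value was -0.22 (adjusted p = 0.116). Its exons share 319 bases with Pkmyt1 on the opposite strand, and since the strand setting of the counting is not given in the sources used here, reads of both genes may be mixed.

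Paqr3 (chromosome 5, 97082329 to 97111596), the Golgi member, was scarce, with 6 to 36 counts per library. Floxed libraries had 0.342, 0.290 and 0.360 CPM on chow and 0.895, 0.372 and 0.600 CPM on HFD. IEKO libraries had 0.720, 0.211 and 0.483 CPM on chow and 0.167, 0.394 and 0.428 CPM on HFD. Neighbouring groups in the order of means overlapped. In floxed mice the HFD libraries were above the chow libraries (log2 fold change 0.90, SE 0.45), not called by edgeR's test (adjusted p = 0.21). In IEKO mice the diets overlapped and the value was -0.52 (SE 0.48, adjusted p = 0.55). The averaged diet value, over these opposite signs, was 0.19 (SE 0.33, adjusted p = 0.71). Paqr3's interaction value of -1.41 (SE 0.66) had an adjusted p of 0.78. It shares 1185 exon bases with Bmp2k on the opposite strand.

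Counted over the family, 6 of 9 members were called for the diet difference averaged over genotypes, with 2 higher (Adipor2 and Paqr7), 4 lower (Adipor1, Paqr4, Paqr5 and Paqr8), 1 not called (Paqr3) and 2 not tested. Of all 17602 genes tested, 26.2% were called in this comparison, 12.9% higher and 13.3% lower. Of the 8 members other than Paqr7, 6 were tested, and the shares of all genes are likewise over tested genes. Of these 6, 4 were called in floxed mice (1 higher, 3 lower), where 13.4% of all genes were called (6.8% higher, 6.57% lower). In IEKO mice 4 were also called (1 higher, 3 lower), against 8.2% of all genes (3.44% higher, 4.76% lower). The same 4 genes were called in both genotypes, Adipor2, Paqr4, Paqr5 and Paqr8, each in the same direction, and 4.8% of all genes met that condition. Chow and HFD libraries did not overlap for 6 of the 6 tested in floxed, 2 higher and 4 lower (37.9% of all genes, 19.3% higher and 18.6% lower). In IEKO this held for 5, 1 higher and 4 lower (25.8% of all genes, 12.7% higher and 13.1% lower). Without floxed chow 1 and IEKO chow 3 together, 5 of 9 members were called for averaged diet, 1 of 8 in floxed (Adipor2, adjusted p = 0.0416) and 1 of 8 in IEKO (Paqr8, adjusted p = 0.0427). With just the IEKO groups fitted, 1 of 8 was called in IEKO (Paqr8). No share of all genes was taken in these reduced fits, so their counts have nothing to be set against. The members were chosen with earlier results known, and the shares above are a description.

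**Figure D3:**
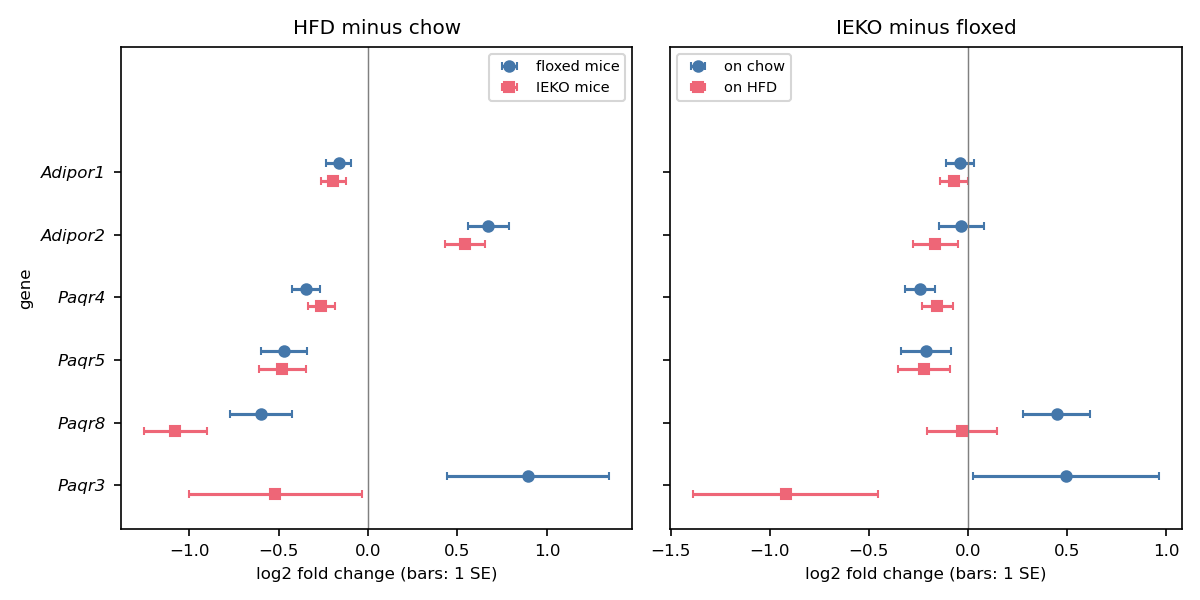
Log2 fold changes (points, bars 1 SE) of the 6 tested members other than Paqr7, for HFD minus chow in each genotype (left) and IEKO minus floxed on each diet (right). Adipor2 is right of 0 and Adipor1, Paqr4, Paqr5 and Paqr8 are left of 0 for diet in both genotypes, while no genotype value passed the test.

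With the proximal score as a covariate, 2 of 9 members were still called for the averaged diet difference, Adipor2 and Paqr7. In floxed mice 0 of 8 were called with it, by edgeR's test, and in IEKO mice 2 of 8 (Adipor2 and Paqr8). The share of all genes called in this fit was not taken, so these counts are no result about the family. In floxed mice the score separates fully by diet, and a call there could be lost for any gene. Within IEKO chow, library 1 had the lowest proximal score of all libraries and library 2 the highest of that group. From library 1 to library 2, Adipor2 went from 158 to 201 CPM, Paqr7 from 2.0 to 2.98, Paqr8 from 16.6 to 12.6 and Adipor1 from 166 to 148. In library 3, whose score of 0.165 lay between, Paqr7 was above both at 3.26 CPM. There Adipor2 (179 CPM), Paqr8 (15.6 CPM) and Adipor1 (158 CPM) lay between the others. Libraries 1 and 2 also differed in the smooth muscle score (0.027 and -0.416) and in an epithelium score made the same way (0.206 and -0.05). They are 1 library against 1, picked after their values were seen, and the part of any of these scores in the diet results was not tested beyond the fits with a covariate.

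**Figure D4:**
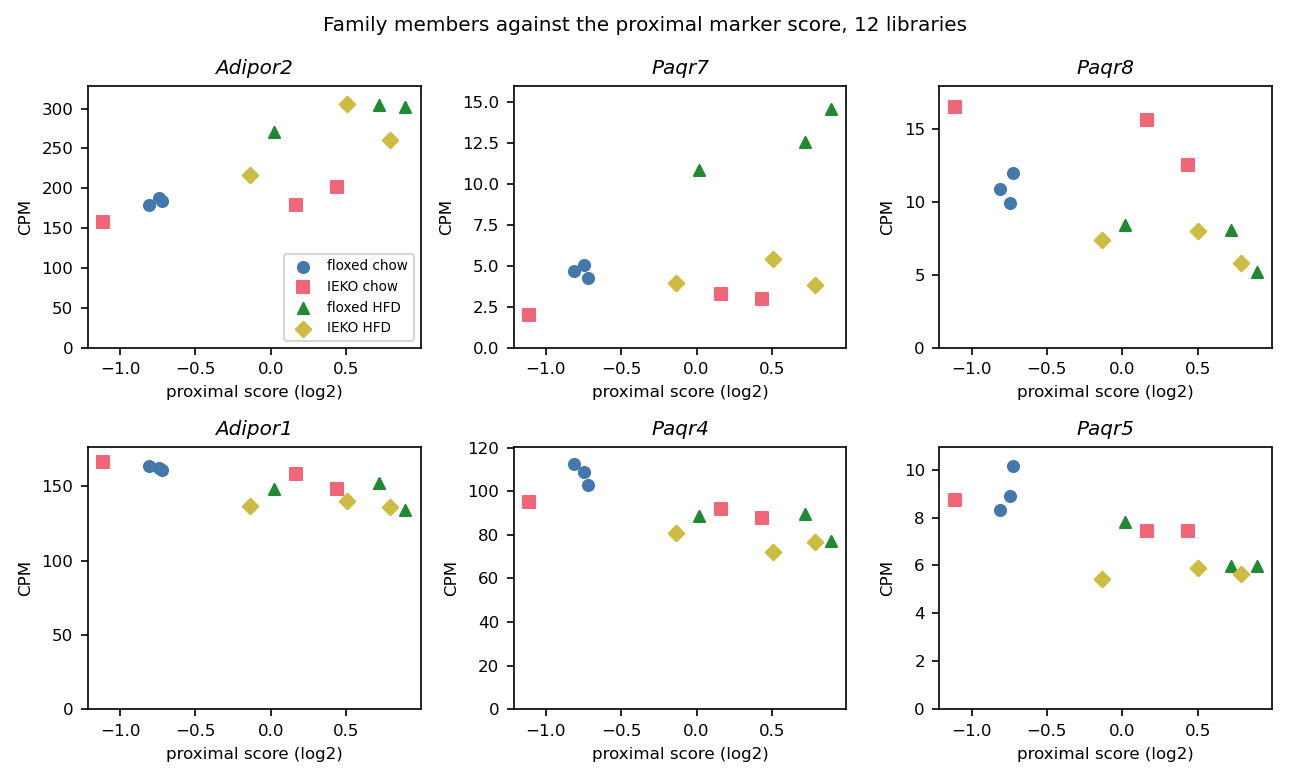
CPM of 6 members (vertical axes from 0) against the proximal marker score (horizontal axis, log2 scale) in 12 libraries, by group. The floxed chow libraries lie at -0.811 to -0.723 and the floxed HFD libraries at 0.019 to 0.893, and the IEKO chow libraries spread from -1.113 to 0.436.

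For the genotype difference, IEKO minus floxed, 6 of the 8 members other than Paqr7 could be tested, and 0 were called on chow by edgeR's test (0.125% of all genes called, 0.0795% higher and 0.0454% lower; 2 members at an unadjusted p under 0.05; 0 by DESeq2). On HFD 0 were called (0.29% of all genes, 0.102% higher and 0.187% lower; 0 at an unadjusted p under 0.05; 0 by DESeq2). Averaged over diets 0 were called (1.49% of all genes, 0.642% higher and 0.846% lower; 2 at an unadjusted p under 0.05; 1 by DESeq2). The interaction of genotype and diet gave 0 calls (0.00568% of all genes, 1 member at an unadjusted p under 0.05, 0 by DESeq2). These shares of all genes are at an adjusted p under 0.05 by edgeR's test. No share was taken at an unadjusted p, so the member counts there have nothing to be set against. Of all genes, DESeq2 called 188 on chow, 288 on HFD, 981 averaged over diets and 57 for the interaction.

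The closest to a genotype call was Paqr4, whose log2 fold change over both diets was -0.20 (SE 0.05, adjusted p = 0.075), made up of -0.24 on chow (SE 0.08, adjusted p = 0.24) and -0.15 on HFD (SE 0.08, adjusted p = 0.42). DESeq2 called the averaged value (-0.20, adjusted p = 0.0221), and so did edgeR without IEKO chow 1 (0.035) or floxed HFD 1 (0.0492). Paqr8 was 0.45 higher in IEKO on chow (SE 0.17, adjusted p = 0.30) and at -0.03 on HFD (SE 0.18, adjusted p = 0.96). IEKO and floxed libraries did not overlap on chow for Paqr4 (lower) and Paqr8 (higher), where this held for 22.1% of all genes (10.0% higher, 12.1% lower). On HFD it was so for Paqr5 (lower), against 18.0% of all genes (9.27% higher, 8.7% lower). Adipor2 had a genotype value of -0.03 on chow (SE 0.11) and -0.16 on HFD (SE 0.11), and Adipor1 of -0.04 and -0.07 (SE 0.07 each). Smooth muscle markers differed by genotype on HFD, their sum being 99.8 to 130 CPM in IEKO HFD and 38.7 to 77.6 CPM in floxed HFD. Of these 10 markers 1 was called (Synm), where 0.29% of all genes were called. Their part in these values was not tested beyond the fit with the muscle score, in which again 0 of the 8 members were called on HFD.

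The genes whose pattern was most like that of Paqr7 were taken among protein-coding genes with a mean of at least 2 CPM, by Pearson correlation of log2 CPM over the 12 libraries. They were Cgref1 (r = 0.969), which encodes a secreted EF-hand protein, Acadvl (0.958), very long-chain acyl-CoA dehydrogenase, Aldh3a2 (0.953), fatty aldehyde dehydrogenase, Sod1 (0.949), copper-zinc superoxide dismutase, and Fem1b (0.949), a ubiquitin ligase subunit. Cgref1 averaged 122 CPM on chow and 187 CPM on HFD in floxed mice, and 106 and 128 CPM in IEKO mice. Acadvl averaged 108 and 166 CPM in floxed mice and 83.1 and 107 CPM in IEKO mice. Ppara ranked 8th (r = 0.943), at 19.8 ± 2.01 and 36.6 ± 2.79 CPM on chow and HFD in floxed mice and 12.34 ± 3.64 and 13.3 ± 3.46 CPM in IEKO mice (SD, n = 3). Adipor2 ranked 258th (r = 0.781). The 12 libraries fall into groups that differ in genotype and diet, and their segment is not given. These correlations describe likeness only.

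Of 35 related genes outside the family 33 were tested. For the averaged diet difference 5 were higher and 5 lower, a share near the 26.2% of all genes called (12.9% higher, 13.3% lower) and so no result about these lists, with a median log2 fold change of 0.004 against 0.013 over all genes. Among 14 genes of adiponectin signalling, 1 rose (Ppargc1a, the PGC1 alpha coactivator, 0.29, adjusted p = 0.048) and 3 fell, with 10 not called. The AMPK subunit genes Prkaa2 (catalytic) and Prkag1 (nucleotide-binding) had log2 fold changes of -0.25 (adjusted p = 0.0075) and -0.23 (adjusted p = 0.011). Adipoq, the adiponectin gene, fell by 1.41 (adjusted p = 0.04), at 0.246 to 0.695 CPM on chow and 0.0281 to 0.459 CPM on HFD, ranges that overlap. By edgeR's test it was not called in floxed (adjusted p = 0.11) or IEKO alone (adjusted p = 0.30). Adipoq counts were low, at 2, 1 and 15 in the IEKO HFD libraries. Beside Adipoq, the fat cell marker Plin1 averaged 0.391 CPM on chow and 0.232 CPM on HFD in floxed mice, and 0.489 and 0.170 CPM in IEKO mice. Cfd, which encodes adipsin, averaged 1.25 and 0.672 CPM in floxed mice and 0.996 and 0.485 CPM in IEKO mice, and neither gene was called. Lep was at 0 in 4 libraries and Retn in 3. The list of 5 adipocyte markers summed to 12.3 to 21.9 CPM on chow and 27.8 to 54.1 CPM on HFD, nearly all of it Cidec, a lipid droplet gene that rose by 1.15 (adjusted p = 0.00035), while the median of its 3 tested genes was -0.96. The part of fat cells in the Adipoq value was not tested.

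Of 5 ceramidase genes 1 fell, the lysosomal acid ceramidase gene Asah1 (-0.39 averaged, adjusted p = 0.0017), and 4 were not called. Of 6 genes of progestin binding and metabolism 1 rose, Pgrmc2 (0.21, adjusted p = 0.0095), which encodes a haem-binding progesterone receptor membrane component, and 4 of the 5 tested were not called. Pgr, the nuclear progesterone receptor gene, was at most at 0.40 CPM. Among 8 partners of PAQR3, Srebf1 (0.30, adjusted p = 0.0035) and Braf (0.18, adjusted p = 0.027) rose, Insig1 (-0.69, adjusted p = 0.00014), which retains SCAP in the endoplasmic reticulum, fell, and 5 were not called. Mmd (PAQR11), a macrophage differentiation factor of the same family, rose from 16.3 to 24.4 CPM in floxed and from 16.1 to 22.2 CPM in IEKO (log2 fold change 0.52 averaged, adjusted p = 0.001). Its relative Mmd2 (PAQR10) had at most 6 counts in a library. In the genotype comparisons on chow, on HFD and averaged over diets 0 of the 33 were called by edgeR's test, where 0.125%, 0.29% and 1.49% of all genes were called. At an unadjusted p under 0.05 there were 6, 3 and 10. No share of all genes was taken at that threshold, so these counts have nothing to be set against.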

How the data were processed

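Expression was measured by bulk RNA-seq of total RNA from intestine in 12 libraries, made with a kit that keeps strand, per the labels. The values the authors deposited are expected counts, which need not be whole (12.3% to 13.2% of values were not) and were not scaled. Trimmomatic, STAR, Picard, RSEM and build mm10 are named in the submitters' processing notes, without versions or roles, and no annotation release or strand setting is given there. RSEM splits reads among similar sequences.

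Symbols and mm10 coordinates came from GENCODE vM21, which matched 47224 of 47643 IDs without regard to version (39106 with it). Expected counts were rounded and fitted in edgeR 4.0.16 (quasi-likelihood F test, robust, TMM, filterByExpr, 4 group means over all 12 libraries) in R 4.3.3, with Benjamini-Hochberg adjustment over 17602 genes per comparison and a threshold of 0.05. CPM used TMM-scaled library sizes, and SEs came from the F statistic. Lengths were the union of annotated exons, a stand-in for effective length. Floors and intervals cover counting error only.

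The members, lists, comparisons and alternatives were chosen with earlier results of these data known. All 9 members, Ppara, called genes of the related lists, Mmd and Mmd2, and the 5 genes most like Paqr7 were named, and other genes were named after their values were seen.

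Alternatives were other size factors (DESeq2 1.42.0) in edgeR, DESeq2's own Wald test, all genes unfiltered, a minimum of 50 counts in 3 libraries, a fit on just the compared groups, a replicate block, each library left out, 2 chow libraries left out, and a smooth muscle or proximal score as covariate. The fitting script was tested on simulated data. Python 3.11.15, pandas 2.3.3 and matplotlib 3.10.9 were used.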

Additional observations from a re-analysis of the deposited data

How the results depend on the processing

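The averaged diet difference called 6 of 9 members in every fit that left out 1 library (6 to 6) and under 6 of the other settings, 5 without floxed chow 1 and IEKO chow 3 together, and 2 with the proximal score. The diet count in floxed was 4 of 8, with 2 to 4 when 1 library was left out and 1 without floxed chow 1 and IEKO chow 3 together. With the proximal score, which cannot be told apart from diet in floxed mice, the count was 0. In IEKO the diet count was 4 of 8, with 5 by DESeq2 (Adipor1 added), 3 with DESeq2's size factors in edgeR (Paqr4 not called), 1 to 5 when 1 library was left out, 1 with only the IEKO groups fitted, 1 without both of those chow libraries, 2 with the smooth muscle score and 2 with the proximal score. The averaged genotype count was 0, with 0 to 1 when 1 library was left out and 1 by DESeq2 (Paqr4). With the replicate block the counts were 3 in floxed (Paqr8 not called, adjusted p = 0.051), 3 in IEKO (Paqr4 not called, 0.0636) and 6 averaged, by edgeR. The numbers gave no clear pairing: deviations of same-numbered libraries correlated at -0.065 to 0.126 over 18 pairs, 3 of them over 0.1, and 8 matched best with their own number. Every pair of IEKO chow and floxed HFD did so (0.107, 0.126 and 0.049). With 3 libraries a group these values do not settle whether the numbers pair the libraries. Genotype counts on chow and on HFD and the interaction count stayed at 0 under every setting. No share of all genes called stands beside these counts, so they describe the members only.

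Signs changed in 19 values, none of them called in either fit. Leaving out 1 library gave the ranges -0.068 to 0.014 for the interaction of Adipor1, -0.13 to 0.054 for the genotype difference of Adipor2 on chow, -0.0046 to 0.40 for the averaged diet difference of Paqr3, -0.084 to 0.13 for the interaction of Paqr5 and -0.22 to 0.092 for the genotype difference of Paqr8 on HFD. With the smooth muscle score the values were 0.0060 for Adipor1 and 0.35 for Paqr8 (genotype on HFD), and 0.067, 0.057 and 0.25 for the interactions of Adipor1, Adipor2 and Paqr5. With the proximal score they were 0.00088 for Adipor1 (genotype on chow) and 0.047 for Adipor2 (interaction). Without both chow libraries the Paqr5 interaction was 0.0083. The cause was not tested. Of 998 member values under other settings 916 kept direction and call or spread. Depth limits Paqr3, Paqr6 and Paqr9.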
